A study of Mus musculus with 9 samples.

Results

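Goblet cells are the mucus-secreting cells of the intestinal epithelium, and deep crypt secretory cells are their c-Kit-positive relatives at the base of colonic crypts, where they sit between the stem cells and supply them with Notch and EGF ligands. The data described here are those of 10 genes that mark these cells, read by symbol from the count table: Muc2, Clca1, Fcgbp, Tff3, Zg16, Agr2, Spdef, Retnlb, Spink4 and Kit. All 10 were among the 46095 symbols of the table, and all 10 passed edgeR's filter on low counts. Of these genes Muc2 alone passed the test between the genotypes, with a level about 3.07-fold lower after additional deletion of Setd2.

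RNA-seq was carried out on intestinal epithelial cells (IECs) released from the colon with EDTA, with 4 libraries of Smad4Vil-KO mice and 5 of Smad4Vil-KO;Setd2Vil-KO mice, the latter written DKO below. In both genotypes Cre recombinase under the Villin promoter, which is active throughout the intestinal epithelium, deletes the floxed alleles, so that all mice carried the epithelial Smad4 deletion and the comparison is that of Setd2 deletion on a Smad4-deficient background. Every mouse had also received the carcinogen azoxymethane (AOM, 10 mg/kg, at 8 weeks of age) and dextran sodium sulphate (DSS, 2%), a chemical irritant of the colonic epithelium, and IECs were taken at 10 days of this AOM/DSS treatment. No library of an untreated or a Smad4-proficient mouse was analysed here.

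The colonic mucus layer is built from the gel-forming mucin Muc2, which is folded in the endoplasmic reticulum, packed into granules and released together with a small number of other proteins. Clca1, Fcgbp and Zg16 are released into the same mucus, Tff3 is the trefoil peptide of goblet cells, and Retnlb and Spink4 are small secreted proteins. Agr2 is a protein disulphide isomerase of the endoplasmic reticulum needed to make Muc2, Spdef is a transcription factor of goblet cell maturation, and Kit is the receptor of stem cell factor.

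Total counts were 12487129 to 17120202 per Smad4Vil-KO library and 12729533 to 14637157 per DKO library, and values below are CPM (counts scaled to library size) after TMM normalization, given for replicates 1 to 4 of Smad4Vil-KO and 1 to 5 of DKO. Setd2 had 118, 120.1, 99.2 and 114 CPM in the Smad4Vil-KO libraries and 57.8, 87.1, 55.7, 53.9 and 76.1 CPM in the DKO libraries, and fell (log2 fold change -0.77, standard error (SE) 0.14, adjusted p = 0.00756). Smad4, deleted in both genotypes, had 54.3 to 92.7 and 38.2 to 114 CPM (log2 fold change 0.13, adjusted p = 0.819), and its sign turned under several alternatives. These counts cover whole genes and not the deleted exons alone. The 7 epithelial markers tested summed to 11920 to 13727 CPM in Smad4Vil-KO and 10962 to 13017 CPM in DKO libraries, and 0 of the 7 passed the test (0 also at an unadjusted p under 0.05), while the 7 leukocyte markers summed to at most 141 CPM and the fibroblast and endothelial markers to at most 59.6 CPM, with 0 of 7 and 0 of 5 tested passing (0 and 2 at an unadjusted p under 0.05). Without DKO replicate 5, 1 epithelial marker was called lower and 1 fibroblast or endothelial marker higher. Counts of 4 Y-linked genes were 3857 to 4907 in DKO replicates 1, 2 and 5 and 0 to 28 in the other libraries, so that what goes with these counts and the genotype cannot be fully told apart. In bulk libraries of this kind fewer goblet cells and less RNA of a gene per cell cannot be told apart.

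The sequence upstream of the start is printed for Muc2, the member that fell, and for Agr2, whose product is needed to make Muc2 and which did not pass the test, both from the RefSeq annotation of GRCm38.p6, and each window is the 250 bases before the RefSeq start, 5′ to 3′ on the gene's strand. Capitals mark matches on either strand to a TATA box (TATAAA), E-box words (CAGCTG and CACCTG), a forkhead word (TGTTTAC), a Cdx word (TTTATGG) or a GC box (GGGCGG). The Muc2 window lies at chr7:141690090-141690339 on the plus strand and the Agr2 window at chr12:35992675-35992924 on the plus strand.
Muc2: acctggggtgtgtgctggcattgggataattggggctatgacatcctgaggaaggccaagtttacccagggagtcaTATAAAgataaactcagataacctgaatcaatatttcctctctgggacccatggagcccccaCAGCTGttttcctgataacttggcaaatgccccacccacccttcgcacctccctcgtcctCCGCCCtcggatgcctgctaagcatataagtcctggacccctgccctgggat
Agr2: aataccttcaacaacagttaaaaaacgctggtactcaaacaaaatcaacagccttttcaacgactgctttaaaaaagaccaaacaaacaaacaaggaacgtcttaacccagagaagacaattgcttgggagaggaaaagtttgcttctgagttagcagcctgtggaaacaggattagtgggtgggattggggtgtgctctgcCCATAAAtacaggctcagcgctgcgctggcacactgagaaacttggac
The Muc2 window held TATAAA 174 to 169 bases before the start, CAGCTG at 112 to 107 and GGGCGG on the minus strand at 52 to 47. The Agr2 window held TTTATGG on the minus strand at 48 to 42 bases before the start and no other of these words. Over 32851 windows of the same length, TATAAA was in 12.4%, CAGCTG in 13%, GGGCGG in 32.7%, CACCTG in 17.2%, TGTTTAC in 3.17% and TTTATGG in 2.43%, and these matches are descriptions of the letters and not of bound sites. No matches printed here overlap each other. The table held such a window for 5 of the 10 members (Muc2, Fcgbp, Agr2, Spdef and Kit).

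Muc2 (ENSMUSG00000025515.15, chr7:141690340-141754693 on GRCm38, plus strand) was the clearest difference among these genes. Its level was 7554, 5383, 6801 and 4835 CPM in the Smad4Vil-KO libraries and 1672, 2758, 1873, 1700.5 and 2010.5 CPM in the DKO libraries. The highest DKO library lay below the lowest Smad4Vil-KO library, and within each genotype the highest library was at most 1.65 times the lowest. The means were 6143 ± 1253 (SD, n = 4) and 2003 ± 444 CPM (SD, n = 5), a fall of 67.4% of the mean (log2 fold change -1.62, SE 0.18, adjusted p = 0.000542 from the quasi-likelihood test of edgeR, adjusted by Benjamini-Hochberg across 14593 genes). The fall kept its direction and passed the test under all 20 alternative settings, among them every library left out in turn.

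Muc2 was thus 1 of 10 members that passed, and it was lower, while of all genes tested 6.54% were called lower and 6.76% higher (13.3% in either direction). At an adjusted p under 0.01 Muc2 was again the 1 member called, beside 3.92% of all genes. It was also the only member whose genotypes did not overlap, which was so of 17.2% of all genes in either direction, 8.87% in the lower and 8.34% in the higher direction. At an unadjusted p under 0.05, 3 members were lower (Muc2, Spink4 and Kit) and 1 was higher (Spdef), beside 30.6% of all genes in either direction. Spdef passed the filter on low counts only with DKO replicates 1, 2 and 3 present, where it is highest, so its direction is no result. The fitted change was below 0 for 8 of 10 members, with a median of -0.57, where it was below 0 for 50% of all genes with a median of -0.0006. A count of 1 in 10 is therefore close to the share of all genes.

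**Figure D1:**
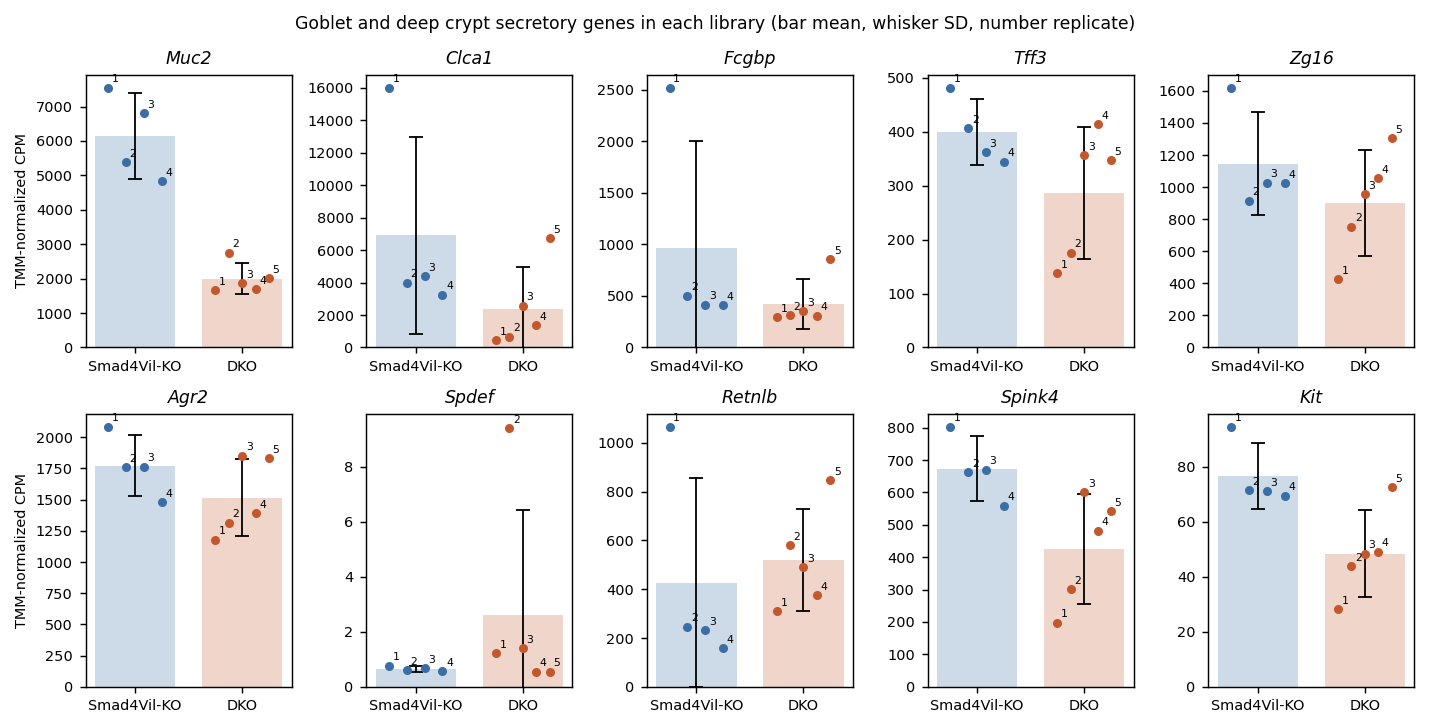
TMM-normalized CPM (linear axes from 0) of the 10 genes in each library of Smad4Vil-KO (blue, n = 4) and DKO (orange, n = 5), with bars for the mean, whiskers for the SD and replicate numbers beside the points. Only the panel of Muc2 has all 5 DKO points below all 4 Smad4Vil-KO points, and replicate 1 is the highest Smad4Vil-KO point in all 10 panels.

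The other 2 large mucus proteins, Clca1 and Fcgbp, had lower means in DKO but varied far more between libraries of a genotype than Muc2. Clca1, a metalloprotease secreted with the mucus (chr3:145003817-145032776, minus strand), had 16018, 3988, 4393 and 3249 CPM in the Smad4Vil-KO libraries and 457, 662, 2567, 1383 and 6740.4 CPM in the DKO libraries. In DKO 4 of 5 libraries lay below every Smad4Vil-KO library, and DKO replicate 5 lay above 3 of the 4. The difference did not pass the test (6912 ± 6089 against 2362 ± 2583 CPM, SD, n = 4 and 5, log2 fold change -1.55, SE 0.75, adjusted p = 0.187 by edgeR). It passed without DKO replicate 5 (-2.43, adjusted p = 0.0286) and was -0.71 (adjusted p = 0.562) without Smad4Vil-KO replicate 1.

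Fcgbp, a large protein of the mucus that carries repeated von Willebrand factor D domains (chr7:28071236-28120862, plus strand), showed the same 2 libraries on top. Its levels were 2518, 501, 416 and 411 CPM in Smad4Vil-KO and 293, 314, 352, 309 and 854 CPM in DKO. Smad4Vil-KO replicate 1 was 6.12 times the lowest library of its genotype, and DKO replicate 5 was 2.91 times the lowest of its own. The fitted change of -1.18 (SE 0.56, adjusted p = 0.184) became -0.06 (adjusted p = 0.93) without Smad4Vil-KO replicate 1. Without both outlying libraries it was -0.47 and passed the test (adjusted p = 0.0274), the other 4 DKO libraries then lying at 293 to 352 CPM and the other 3 of Smad4Vil-KO at 411 to 501 CPM.

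Tff3, Zg16 and Spink4, 3 small secreted products of goblet cells, did not pass the test, and in each of them DKO replicates 1 and 2 were the lowest libraries of all. Tff3 (chr17:31125306-31129646, minus strand) had 482, 407, 362 and 344 CPM in Smad4Vil-KO and 137, 176, 356, 414 and 347 CPM in DKO (log2 fold change -0.48, SE 0.29, adjusted p = 0.286). Zg16, a lectin that binds bacterial cell wall (chr7:127050156-127087328, minus strand), had 1621, 915, 1027.5 and 1023 CPM and 426, 753, 957, 1057 and 1306 CPM (-0.35, SE 0.28, adjusted p = 0.422). Spink4, a Kazal-type protease inhibitor (chr4:40920052-40931395, plus strand), had 802, 662, 671 and 559 CPM and 198, 301, 601, 482 and 541 CPM (-0.67, SE 0.27, adjusted p = 0.129).

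DKO replicates 3, 4 and 5 lay within the Smad4Vil-KO range or above its lowest library for Tff3 and Zg16, and for Spink4 they spanned 482 to 601 CPM against 559 to 802 CPM in Smad4Vil-KO. Without DKO replicate 1 the fitted change was -0.30 for Tff3 and -0.17 for Zg16, and without Smad4Vil-KO replicate 1 that of Zg16 was -0.13, none of them past the test. Against the 2 DKO libraries with few Y-linked counts alone, the fitted change was -0.05 for Tff3 (SE 0.14), -0.18 for Zg16 (SE 0.21) and -0.31 for Spink4 (SE 0.15), where that of Muc2 was -1.78 (SE 0.18, adjusted p = 0.000388). DKO replicates 1 and 2 also had the smallest shares of mitochondrial counts, 5.62% and 6.29% against 8.12% to 10.3% in the other 7 libraries, and Y-linked counts, which DKO replicate 5 shared. With a term for the Y-linked counts in the fit, the change was -0.05 for Tff3, -0.19 for Zg16 and -0.31 for Spink4, none past the test. The part of the mitochondrial share in the result was not tested.

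Agr2, the disulphide isomerase (chr12:35992907-36004087, plus strand), had the smallest fitted change of all members. Its levels were 2084, 1760.4, 1766 and 1480.5 CPM in Smad4Vil-KO and 1179, 1317, 1852, 1390.4 and 1835 CPM in DKO. The genotypes overlapped over most of their range, and the means of 1773 ± 247 (SD, n = 4) and 1514.5 ± 310 CPM (SD, n = 5) differed by less than the SD of the DKO libraries. The fitted change was -0.23 (SE 0.16, adjusted p = 0.345), and it lay between -0.31 and -0.12 under the alternatives (-0.14 without Smad4Vil-KO replicate 1 and -0.15 without DKO replicate 1).

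Retnlb, which encodes the antibacterial protein RELMβ (chr16:48816856-48818892, plus strand), was the only abundant member with a fitted change above 0. It had 1066, 246, 233 and 158 CPM in the Smad4Vil-KO libraries and 309, 581, 490, 375 and 848 CPM in the DKO libraries. Smad4Vil-KO replicate 1 was above every other library, whereas the other 3 Smad4Vil-KO libraries were below every DKO library. Over all 9 libraries the difference did not pass the test (426 ± 429 against 520.4 ± 211 CPM, SD, n = 4 and 5, log2 fold change 0.29, SE 0.52, adjusted p = 0.74). Without Smad4Vil-KO replicate 1 it passed in the higher direction (1.30, SE 0.31, adjusted p = 0.035), and it did so too without that library and DKO replicate 5 (1.06, SE 0.23, adjusted p = 0.0244). A single library thus decided whether Retnlb was called.

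Spdef, the transcription factor (chr17:27714352-27728955, minus strand), was close to the limit of detection in libraries rich in goblet products. It had 12, 10, 11 and 7 counts in Smad4Vil-KO libraries and 19, 132, 20, 7 and 7 counts in DKO libraries, which is 0.556 to 0.77 CPM and 0.543 to 9.39 CPM. DKO replicate 2 stood alone, with the other 4 DKO libraries at 0.543 to 1.4 CPM. The fitted log2 fold change of 2.0 (SE 0.85, adjusted p = 0.137) was 0.59 with the Y-linked term, 0.60 in the libraries without Y-linked counts and 0.68 by limma-voom. Without DKO replicate 1, 2 or 3 Spdef did not pass the filter on low counts.

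Kit, the receptor tyrosine kinase that marks deep crypt secretory cells (ENSMUSG00000005672.12, chr5:75574916-75656722, plus strand), was lower in 4 of 5 DKO libraries than in any Smad4Vil-KO library. It had 94.6, 71.5, 71.1 and 69.5 CPM in Smad4Vil-KO and 28.3, 43.9, 48.5, 49.1 and 72.6 CPM in DKO. DKO replicate 5 alone lay within the range of Smad4Vil-KO, where 3 of the 4 libraries were within 69.5 to 71.5 CPM. The means were 76.7 ± 12 (SD, n = 4) and 48.5 ± 15.9 CPM (SD, n = 5), and the difference fell just short of the threshold (log2 fold change -0.66, SE 0.21, adjusted p = 0.0653, unadjusted p = 0.0103 by edgeR's quasi-likelihood fit). It passed in 8 of 20 alternatives, among them DESeq2 (adjusted p = 0.022), limma-voom (adjusted p = 0.0213) and the fit without DKO replicate 5 (-0.84, adjusted p = 0.0108), a library that 4 of the 8 left out, and it lay between -0.86 and -0.52 in all of them.

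Kit is also expressed by mast cells and by interstitial cells of Cajal, so markers of both were read beside it. The 10 mast cell markers summed to 48.8 to 166 CPM in Smad4Vil-KO and 46.7 to 127 CPM in DKO libraries, and of 8 tested 1 was lower (Cma1, log2 fold change -1.96, adjusted p = 0.0251) and 0 higher (0 also at an unadjusted p under 0.05). The mast cell protease Cpa3 was at 2.26 ± 1.16 (SD, n = 4) and 2.72 ± 0.937 CPM (SD, n = 5), and the tryptase genes Tpsb2 and Tpsab1 had at most 13 counts in a library. Of the interstitial cell and smooth muscle markers, Ano1 had 123 ± 43.8 (SD, n = 4) and 78.4 ± 27.6 CPM (SD, n = 5) and did not pass (log2 fold change -0.65, adjusted p = 0.117), Etv1 was higher at 0.735 and 1.77 CPM (1.26, adjusted p = 0.0327), and the muscle genes Myh11, Des, Actg2 and Cnn1 had at most 17 counts in a library. Ano1 was highest in Smad4Vil-KO replicate 1 (188 CPM) and DKO replicate 5 (126 CPM), as Kit was, and its part in the Kit values was not tested. Without DKO replicate 5 Ano1 was called lower too (-0.87, adjusted p = 0.0204), as it was in only the libraries without Y-linked counts (-0.85) and without both outlying libraries (-0.60). With 1 library left out Ano1 ranged from -0.87 to -0.37, and its adjusted p was 0.0197 to 0.339 over the alternatives. Cma1 lost its call in 5 and Etv1 in 9 of the 19 alternatives that tested them. Etv1, with 8 to 18 counts in Smad4Vil-KO libraries, passed the filter on low counts through the DKO libraries. The 1 of 8 mast cell markers called is close to the 13.3% of all genes.

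**Figure D2:**
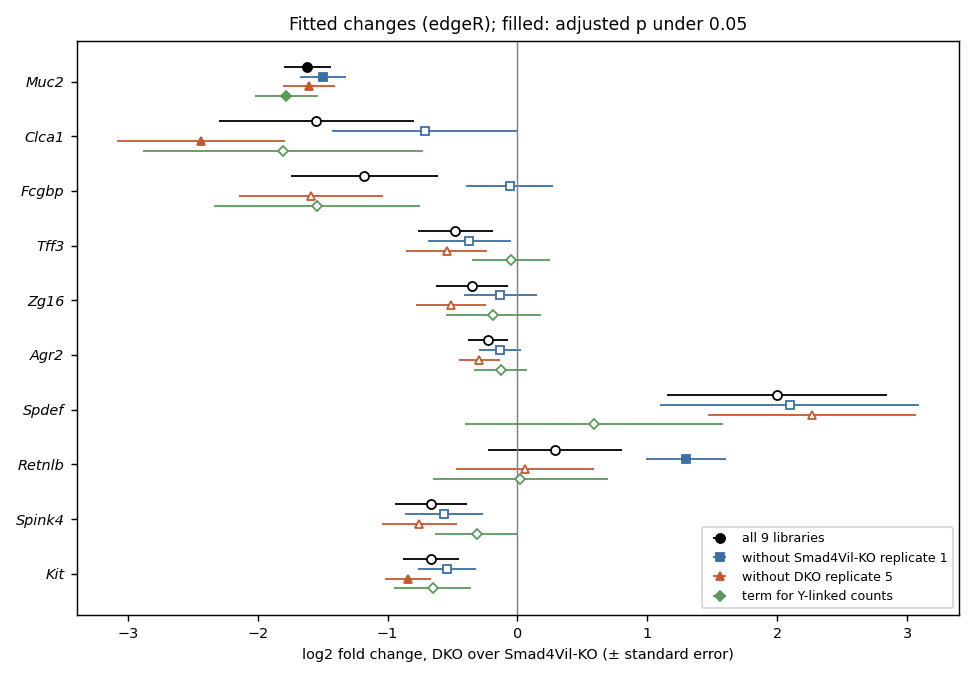
Fitted log2 fold change of each gene, DKO over Smad4Vil-KO, with its standard error, from all 9 libraries (black), without Smad4Vil-KO replicate 1 (blue), without DKO replicate 5 (orange) and with Y-linked counts as a model term (green), filled where the adjusted p was under 0.05. Muc2 is filled in all 4 fits, Clca1 and Kit only without DKO replicate 5, and Retnlb only without Smad4Vil-KO replicate 1.

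Many members shared their highest or lowest library within a genotype. Smad4Vil-KO replicate 1 was the highest library of its genotype for 10 of 10 members (Spdef at 12 counts against 11 in replicate 3) and replicate 4 the lowest for 9. Among the DKO libraries replicate 1 was the lowest for 9 members. The highest DKO library was replicate 5 for 5 members, replicates 2 and 3 for 2 each and replicate 4 for 1. The share of all genes with the same order is not given here. The members together took 3.08%, 1.37%, 1.57% and 1.22% of the counts of the Smad4Vil-KO libraries and 0.511%, 0.705%, 0.889%, 0.715% and 1.40% of those of the DKO libraries, so DKO replicate 5 lay within the Smad4Vil-KO range. For Muc2 itself DKO replicate 5 stayed below every Smad4Vil-KO library.

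Between the members, likeness was measured as the root mean square difference of their log2 CPM over the 9 libraries, each gene centred on its own mean. The closest pair was Tff3 and Spink4 (0.18), followed by Zg16 and Kit (0.22) and Spink4 and Kit (0.26). Muc2 was nearest to Kit (0.57) and was farther from Tff3 (0.76), Zg16 (0.76) and Clca1 (1.18). The 9 points of each profile share library depth and genotype, and these figures are descriptions.

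**Figure D3:**
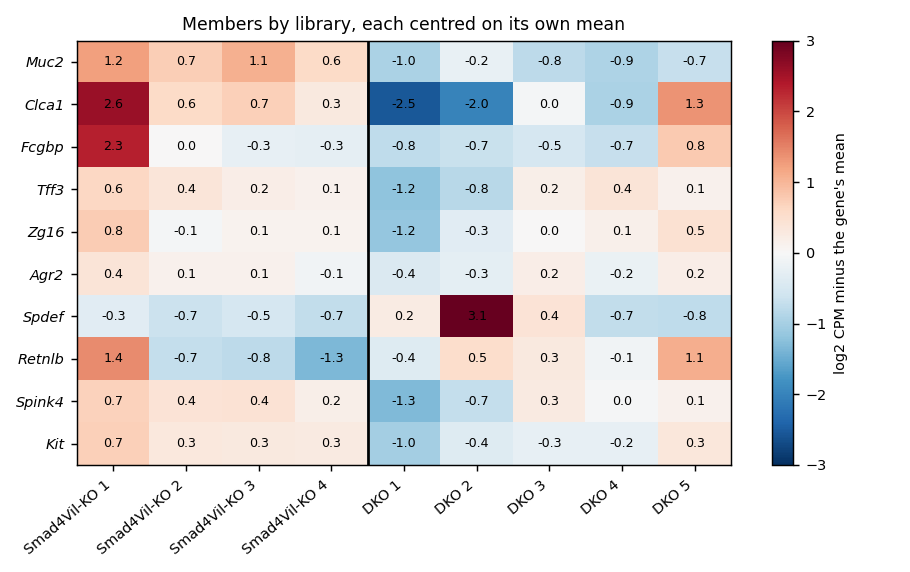
Log2 CPM of each gene minus its mean over the 9 libraries, as colour and printed value, with libraries in columns and a line between Smad4Vil-KO and DKO. Smad4Vil-KO replicate 1 is above the mean for 9 of the 10 genes, with Spdef as the exception, and the row of Muc2 is the only one with 1 sign on each side of the line.

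Outside the members, the genes whose profile was most like that of Muc2 were Thsd4 (0.20, against a spread of Muc2 itself of 0.85), LOC105244659 (0.21), Lamb2 (0.23), Zfp772 (0.24) and 4930447F24Rik (0.24). Thsd4, a secreted protein with thrombospondin repeats, was at 37.3 CPM in Smad4Vil-KO and 10.7 CPM in DKO on average. Lamb2, a laminin chain of basement membranes, was at 10.9 and 4.24 CPM. Those most like Kit were Prcp (0.093, against a spread of Kit itself of 0.49), Tcea3 (0.13), Sirt3 (0.13), Zdhhc24 (0.13) and Hoxb13 (0.14), and Hoxb13, a homeobox gene of the distal colon, was at 173 CPM in Smad4Vil-KO and 101 CPM in DKO on average.

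A second view was the count of a member as a percentage of the Muc2 count in the same library, which uses no normalization between libraries and was chosen after the values had been seen. Agr2 was at 27.6%, 32.7%, 26% and 30.6% of Muc2 in Smad4Vil-KO and at 70.5%, 47.8%, 98.9%, 81.8% and 91.3% in DKO. Zg16 was at 15.1% to 21.5% and 25.5% to 65%, Retnlb at 3.26% to 14.1% and 18.5% to 42.2%, and Kit at 1.05% to 1.44% and 1.59% to 3.61%. These 4 ratios did not overlap between the genotypes, whereas those of Clca1, Fcgbp, Tff3 and Spink4 did. Over all genes 83.4% of the ratios to Muc2 did not overlap, nearly all of them higher in DKO (83.2%), so that a ratio without overlap is the usual case once Muc2 is the denominator and is no result about these members.

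Levels between members can be compared only per length, here as CPM per kilobase of the exons annotated for the gene in GENCODE vM21. On that scale the Smad4Vil-KO means ran from Clca1 (1830 ± 1612, SD, n = 4) through Spink4 (1412 ± 209), Agr2 (1373 ± 191), Zg16 (912 ± 255), Muc2 (862 ± 176), Tff3 (809 ± 124), Retnlb (612 ± 616), Fcgbp (91.6 ± 98.9) and Kit (8.61 ± 1.34) to Spdef (0.282 ± 0.0412). Neighbours in that order differed by less than the larger of their SDs, except Agr2 above Zg16 and Kit above Spdef. In DKO the order was Agr2 (1173 ± 240, SD, n = 5), Spink4 (890.4 ± 355), Retnlb (748 ± 303), Zg16 (716 ± 264), Clca1 (625 ± 684), Tff3 (580.4 ± 247), Muc2 (281 ± 62.3), Fcgbp (40.4 ± 23), Kit (5.44 ± 1.78) and Spdef (1.14 ± 1.65). There the neighbours from Agr2 down to Tff3 differed by less than the larger SD and those from Tff3 down to Spdef by more. Muc2 stood in place 5 in Smad4Vil-KO and place 7 in DKO, and its place depends on the 7127 exonic bases annotated for it.

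Transcription factors of the secretory lineage were tested next to the members. Of 15 tested, 2 fell and 0 rose (0 also rose at an unadjusted p under 0.05), and all 15 had a fitted change below 0 with a median of -0.20, against 50% and -0.0006 for all genes. Foxa2, a forkhead factor of goblet and enteroendocrine cells, fell from 40.7, 32.1, 37.3 and 36.2 CPM to 24.4, 19.9, 20.3, 21.2 and 28.8 CPM without overlap (log2 fold change -0.67, SE 0.13, adjusted p = 0.00737). Sox9, a factor of crypt base and secretory cells, fell from 71.1 to 79.4 CPM to 41 to 70.3 CPM (-0.46, SE 0.13, adjusted p = 0.0439), again without overlap, and lost its call in 9 of 20 alternatives, among them the removal of any library but DKO replicate 5 (adjusted p 0.00945 to 0.15 over the alternatives). Atoh1, the factor that commits cells to the secretory lineage, had 76.5, 71, 59.4 and 60.2 CPM in Smad4Vil-KO and 48.7, 49.7, 51.4, 44.2 and 76.5 CPM in DKO and did not pass (-0.30, SE 0.16, adjusted p = 0.211). It passed in the lower direction in 4 of 20 alternatives, all of which left out DKO replicate 5 (-0.45, adjusted p = 0.0169, without that library alone). As with Kit, 4 of 5 DKO libraries lay below every Smad4Vil-KO library for Atoh1, and DKO replicate 5 did not.

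Of 23 other goblet cell products and genes of the secretory machinery, 1 rose and 1 fell, with a median of -0.28. Capn8, a calpain, rose from 26.1 to 34.2 CPM in Smad4Vil-KO to 52.3 to 81.7 CPM in DKO (log2 fold change 1.08, SE 0.13, adjusted p = 0.00105). Tmed3, a cargo receptor between the endoplasmic reticulum and the Golgi, fell from 84.9 to 107 CPM to 41 to 66.6 CPM (-0.91, SE 0.14, adjusted p = 0.00311). Ern2, the endoplasmic reticulum stress sensor of goblet cells, had 147 to 187 CPM in Smad4Vil-KO and 119 to 144 CPM in DKO without overlap but did not pass (-0.27, SE 0.09, adjusted p = 0.0799, and 0.0474 by limma-voom). With 1 library left out Ern2 ranged from -0.30 to -0.17, and its adjusted p was 0.0474 to 0.219 over the alternatives. Best2, an anion channel of colonic goblet cells, had 18 to 32.4 and 9.02 to 24.7 CPM (-0.65, SE 0.29, adjusted p = 0.153). The 2 of 23 called are no larger a share than the 13.3% of all genes, and 18 of the 23 had a fitted change below 0, with 7 lower and 2 higher at an unadjusted p under 0.05.

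Of 7 genes listed for deep crypt secretory cells, 1 rose and 0 fell by the edgeR test (1 was lower at an unadjusted p under 0.05), with a median of -0.0081. A count of 1 in 7 is close to the 13.3% of all genes called in either direction. Dll1, a Notch ligand, rose from 14.1 to 18.6 CPM to 17.9 to 27.6 CPM (log2 fold change 0.52, SE 0.14, adjusted p = 0.0308) and lost its call in 10 of 20 alternatives, among them the removal of Smad4Vil-KO replicate 1, 3 or 4 or DKO replicate 1, 2 or 4 (adjusted p 0.00472 to 0.221 over the alternatives). Reg4, the secreted lectin that together with c-Kit defines these cells, had 791, 293, 399 and 393 CPM in Smad4Vil-KO and 208, 229, 615, 563 and 717 CPM in DKO (-0.0081, SE 0.40, adjusted p = 0.991), with DKO replicates 1 and 2 again the lowest. Kitl, which encodes the ligand of Kit, had 143, 137, 125 and 139 CPM and 65.2, 81.8, 118, 104 and 128 CPM (-0.45, SE 0.17, adjusted p = 0.0999, and -0.55 with adjusted p = 0.0405 without DKO replicate 5). The difference between Reg4 and Kit was not tested.

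Relatives of the members were read to see whether the fall extended to their families. Of 23 listed, 21 were in the table and 13 were tested, of which 4 fell and 0 rose by edgeR, with a median of -0.45. Of all genes 6.54% were called lower and 6.76% higher. At an unadjusted p under 0.05, 7 relatives were lower and 1 was higher, beside 15.3% of all genes lower. Muc1, a transmembrane mucin, had 18.3, 38.2, 26.9 and 42.5 CPM in Smad4Vil-KO and 5.32, 7.04, 5.45, 6.69 and 3.10 CPM in DKO and fell by 2.51 on the log2 scale (SE 0.28, adjusted p = 0.000541). Muc13, the abundant transmembrane mucin of the colon, fell less, from 2587 to 3125 CPM to 1814 to 2394 CPM (-0.37, SE 0.10, adjusted p = 0.0404), and lost its call in 14 of 20 alternatives, among them the removal of any library but DKO replicate 5 (adjusted p 0.00298 to 0.204). Clca3a1 (-1.23, SE 0.23, adjusted p = 0.00699) and Clca3a2 (-1.17, SE 0.33, adjusted p = 0.0382), relatives of Clca1 with similar sequences between which the counting could split reads, fell without overlap between the genotypes. In all, 6 of the 13 tested relatives did not overlap in the lower direction, beside 8.87% of all genes. Clca3a1 lost its call only with the Y-linked term (adjusted p = 0.0571), and Clca3a2 in 10 of 20 alternatives, among them the removal of any Smad4Vil-KO library or DKO replicate 1, 2 or 4 (adjusted p 0.0033 to 0.238).

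The gel-forming mucins listed beside Muc2 had few counts. Muc5ac had at most 2 counts in a library, Muc5b at most 1 and Muc6 at most 44, beside 21622 to 117734 counts of Muc2. The trefoil genes Tff1 and Tff2 had at most 1 and 8 counts in a library, beside 2142 to 7512 counts of Tff3.

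**Figure D4:**
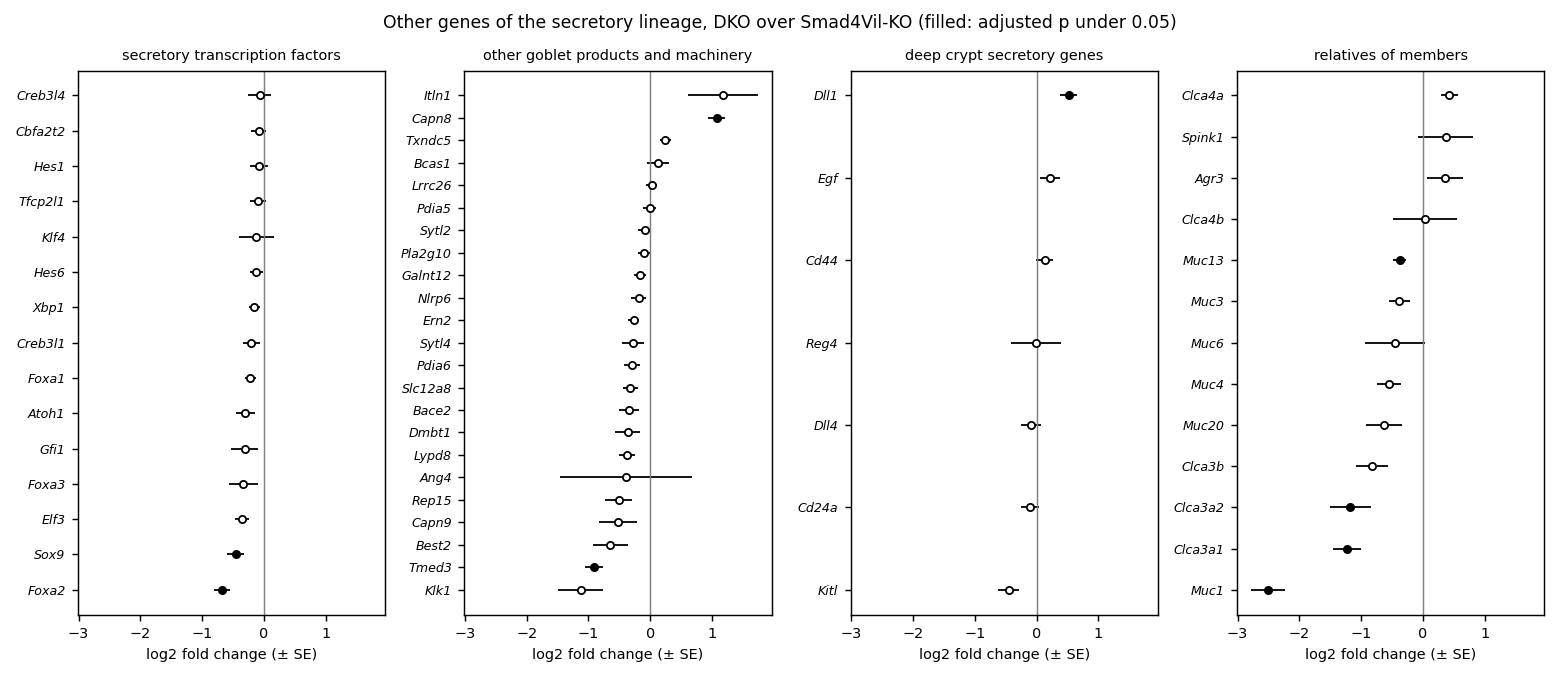
Log2 fold change with standard error, DKO over Smad4Vil-KO, of the tested genes of 4 lists, the secretory transcription factors, other goblet products and machinery, deep crypt secretory genes and relatives of the members, filled where the adjusted p was under 0.05. All 15 transcription factors lie below 0, and Muc1 lies farthest from 0 at -2.51.

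Of the marker lists of other epithelial cell types, those of small intestinal enterocytes, the distal colon and enteroendocrine cells had most of their tested genes called. Of all genes 6.76% were called higher and 6.54% lower, and the lists were chosen with earlier results of these data known. Of 10 small intestinal enterocyte markers tested, 7 rose and 0 fell (0 also fell at an unadjusted p under 0.05). Apoa1 had 0 counts in every Smad4Vil-KO library, and Npc1l1, Enpep and Sis had as few as 1, 10 and 7 counts in a Smad4Vil-KO library. These genes passed the filter on low counts through the DKO libraries, so their direction is no result here. The list summed to 425 to 505 CPM in Smad4Vil-KO and 649 to 1616 CPM in DKO libraries, with 1237, 1616, 1038.5, 1593.5 and 649 CPM in DKO replicates 1 to 5. Of 4 distal colon homeobox genes tested 3 fell, Hoxb13 (log2 fold change -0.78), Hoxd13 (-0.95) and Hoxd12 (-1.31), of which Hoxb13 lost its call in 6 and Hoxd12 in 9 of 20 alternatives, and the list summed to 214 to 318 and 114 to 218 CPM, with DKO replicate 5 the highest of its genotype. Of 5 enteroendocrine markers 3 rose, among them Chga from 14.4 ± 3.41 (SD, n = 4) to 52.8 ± 10.8 CPM (SD, n = 5). Of 9 colonocyte markers 1 rose (Guca2b) and 1 fell (Slc37a2), of 4 Paneth cell markers tested 1 rose (Defa24), of 5 stem cell markers 1 rose (Olfm4), and 0 of 5 tuft cell and 0 of 5 proliferation markers passed (at an unadjusted p under 0.05, 0 and 1). Slc37a2 lost its call in 9 of 20 alternatives (adjusted p up to 0.0901) and Defa24 in 5 of 19 (up to 0.0738). Neurod1, Defa24 and Olfm4 had as few as 8, 7 and 8 counts in a Smad4Vil-KO library and passed the filter through the DKO libraries too. All 5 tuft cell markers had a fitted change below 0, and without DKO replicate 5 the edgeR test called 3 of them lower and 1 proliferation marker higher. The part of these shifts in the values of Muc2 and the other members was not tested.

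The 2 libraries that stood apart for several members did so for other genes too. Smad4Vil-KO replicate 1 and DKO replicate 5 were the 2 highest of the 9 libraries for 466 of 14593 genes (3.19%), for 5 of the 10 members (Clca1, Fcgbp, Zg16, Retnlb and Kit) and for 8 of the 23 other goblet genes. The 9 libraries form 36 pairs, so the share of all genes is close to 1 in 36. This pair was chosen after the values of the members were seen, so the 5 of 10 carries no test. Mptx1, a mucosal pentraxin, had 3360.3 and 3305 CPM in them and 12.8 to 262 CPM in the other 7. Ang4, an antimicrobial ribonuclease, had 1439.5 and 1429 CPM in them and 27.8 to 442 CPM in the others. Both were chosen after their values were seen and carry no test. Without the 2 libraries the members called were Muc2, Kit and Fcgbp in the lower direction and Retnlb in the higher direction.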

How the data were processed

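RNA-seq libraries of colon IECs (4 Smad4Vil-KO and 5 DKO) were analysed, grouped by their labels. The authors deposited whole-number counts per gene symbol without normalization. The submitters' processing notes name HISAT2 2.0 and the build mm10. The counting program, the annotation and the use of strand are not given in the sources used here, and reads of near-identical or overlapping genes could be split. Of 46095 symbols, 27 had been turned into dates and stayed unnamed. No pair of libraries within a genotype agreed within sampling noise, so each of the 9 counted as a replicate. The labels number the replicates without saying that each is a separate animal, and p-values measure the spread between these libraries. Dose, day and age come from the study's methods.

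Using R 4.3.3, genes were filtered with filterByExpr, normalized with TMM and tested with edgeR 4.0.16 (quasi-likelihood, Benjamini-Hochberg over 14593 genes, threshold 0.05), without covariates. SEs were taken as the size of the log2 fold change divided by the root of F. Centred log2 CPM used a prior count of 2. Alternatives were DESeq2 1.42.0, limma-voom with quality weights (limma 3.58.1), robust dispersion, other scalings and filters, each library left out, a replicate block, a Y-linked term, and the libraries without Y-linked counts alone (under 100). Scripts were tested on simulated data. Positions are those of GENCODE vM21 and RefSeq GRCm38.p6, the same assembly as mm10.

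The members and lists were chosen with earlier results of these data known. Named genes were the members, the called genes of each list (not every one is reported here), Atoh1, Reg4, Best2, Ern2, Kitl, Setd2, Smad4 and the 5 genes most like Muc2 and Kit, and other genes were chosen after their values were seen.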

Additional observations from a re-analysis of the deposited data

Results flagged for a closer look

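In each genotype a library was taken to stand apart where its gap to the nearest other library, over the whole range of that genotype, passed Dixon's critical value at 95%. This was so for 13 of 88 groups examined over 44 genes. The critical value stands for 1 in 20 only in independent groups. These groups share the same 9 libraries, so the count was not tested against that rate. Members accounted for 7 of the values below, and Smad4Vil-KO replicate 1 for most of them.

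Smad4Vil-KO replicate 1 stood above the other 3 libraries for Clca1 (16018 against 3249 to 4393 CPM), Fcgbp (2518 against 411 to 501 CPM), Zg16 (1621 against 915 to 1027.5 CPM), Retnlb (1066 against 158 to 246 CPM) and Kit (94.6 against 69.5 to 71.5 CPM). Outside the members it did so for Ern2 (187 against 147 to 150.4 CPM), for Smad4 (92.7 against 54.3 to 55.4 CPM) and for Etv1 (1.15 against 0.535 to 0.635 CPM). DKO replicate 5 stood above the other 4 for Fcgbp (854 against 293 to 352 CPM), Atoh1 (76.5 against 44.2 to 51.4 CPM) and Hoxd12 (3.18 against 0.854 to 1.41 CPM). DKO replicate 2 stood above the others for Spdef (9.39 against 0.543 to 1.4 CPM). Eif2s3y, a Y-linked gene, had 0.0794 CPM in Smad4Vil-KO replicate 4 and 0 in the other 3, which is 1 count. The part of these libraries in each result was measured only by leaving them out.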

How the results depend on the processing

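Muc2 kept its direction and its call in all 20 alternatives (log2 fold change -1.78 to -1.496). Agr2, Tff3, Zg16 and Spink4 kept direction and were called in none of the 20, nor was Spdef in the 16 that tested it.

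Kit passed under DESeq2 (-0.66), limma-voom (-0.61), library size alone (-0.64), no filter (-0.68), the replicate block (-0.86, a fit of replicates 1 to 4 that also leaves out DKO replicate 5, without which Kit passed with no block at -0.84), only libraries without Y-linked counts (-0.65) and, added after seeing the data, without Smad4Vil-KO replicate 1 and DKO replicate 5 (-0.73). In the last, Fcgbp (-0.47) and Retnlb (1.06) passed as well. With 1 library left out, the changes ranged from -2.43 to -0.71 for Clca1, -1.59 to -0.059 for Fcgbp, 0.011 to 1.30 for Retnlb, -0.64 to -0.30 for Tff3, -0.51 to -0.13 for Zg16, -0.31 to -0.14 for Agr2, -0.82 to -0.48 for Spink4 and -0.84 to -0.52 for Kit, the causes not being tested. The replicate numbers did not pair the samples (correlations of deviations at the same number -0.10 to 0.088), and on replicates 1 to 4 the calls over all genes were 807 higher and 774 lower with the block and 1380 higher and 1316 lower without it.

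Members called lower were 2 (1 in the report) under DESeq2, limma-voom, library size alone, no filter, the block and without Y-linked libraries, and 3 without the 2 outlying libraries, at an unadjusted p under 0.05 and at a fold change over 1.5 with it. Members called higher were 1 (0 in the report) without the 2 outlying libraries (Retnlb) and at both unadjusted rules (Spdef, which passed the filter through DKO libraries). With 1 library left out they were 1 to 3 lower and 0 to 1 higher, and members without overlap were 1 to 4 lower and 0 to 1 higher (2 lower with library size alone).

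Of all genes, 653 were called higher and 632 lower with the Y-linked term, 1525 lower by limma-voom, 1524 lower without Y-linked libraries, and 455 to 1380 higher and 392 to 1316 lower with 1 library left out. DKO replicate 5 gave the highest counts when left out and Smad4Vil-KO replicate 3 the lowest.

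Secretory transcription factors called lower were 5 without Y-linked libraries, 4 without the 2 outlying libraries and 1 to 5 with 1 left out. Other goblet genes called higher were 2 under DESeq2, limma-voom, library size alone and without Y-linked libraries. Those called lower were 3 under DESeq2, 5 under limma-voom and without Y-linked libraries, 4 under the block and without the 2 outlying libraries, 2 under library size alone, no filter and the Y-linked term, and 1 to 4 with 1 left out. Deep crypt secretory genes called higher were 0 under the block, the Y-linked term, without Y-linked libraries and without the 2 outlying libraries, and 0 to 1 with 1 left out (lower 0 to 1). Relatives called higher were 1 under DESeq2, limma-voom and library size alone and 2 without Y-linked libraries (0 to 1 with 1 left out), and those called lower were 1 under the Y-linked term (2 to 5 with 1 left out). Among marker lists with no call in a direction, DESeq2 called 1 fibroblast and endothelial marker higher and limma-voom 1 proliferation marker higher, and leaving out DKO replicate 5 called 3 tuft cell, 1 epithelial and 1 interstitial cell or smooth muscle marker lower and 1 proliferation and 1 fibroblast or endothelial marker higher. Lower calls among tuft cell markers also came with the block (1), without Y-linked libraries (2) and without the 2 outlying libraries (1), and 1 Paneth cell marker was called lower with no filter, without Smad4Vil-KO replicate 1 and without the 2 outlying libraries. Under the block, without Y-linked libraries and without the 2 outlying libraries, 1 epithelial marker was called lower, and 1 proliferation and 1 fibroblast or endothelial marker higher.

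Reg4 turned sign under limma-voom (0.26), library size alone (0.012), at least 10 counts (0.00084), the Y-linked term (0.33), without Y-linked libraries (0.33) and without the 2 outlying libraries (0.17), and ranged from -0.20 to 0.37 with 1 left out. Smad4 turned under limma-voom (-0.18), the block (-0.13), the Y-linked term (-0.71) and without Y-linked libraries (-0.70), and ranged from -0.11 to 0.37. At least 10 counts in every library left out Spdef, as did leaving out some DKO libraries. DESeq2 gave no p for Fcgbp. Depth limits Spdef (7 to 132 counts) and no other member.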
